A study of Mus musculus with 6 samples.

Results

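This account follows 36 genes that mark the endothelium of lung vessels in 3 whole-lung samples bearing KP cells (Lung_KP) and in 3 samples of the KP cell line (CellLine_KP). The genes were listed by name as endothelial markers, not picked by a threshold on these values. The list was, however, chosen with earlier results of these data known. All 36 were among the 20687 gene symbols of the deposited table, and 35 were among the 15212 genes tested. Each Lung_KP sample was total RNA from the collagenase-digested lungs of 3 pooled C57BL/6 mice, and the 3 pools came from separate experiments. These mice were given 100000 KP cells by tail vein and their lungs were taken on day 28. CellLine_KP samples were triplicate RNA preparations of the same KP line, also labelled C57BL/6. KP is a mouse lung tumour line, and its genotype, the age of the mice and whether the triplicates were separate cultures are not stated in the labels. The series set out to compare chemokine expression between lungs and line, and it has no tumour-free lung, so vessels of normal lung and vessels of tumours cannot be told apart here.

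Endothelial cells form the inner wall of blood and lymphatic vessels. They hold together through VE-cadherin and PECAM-1, are kept in their identity by ETS and SOXF transcription factors, and divide in the lung into gas-exchanging capillaries, larger arteries and veins, and lymphatics. A tumour cell line grown alone holds no vessels, whereas a tumour in the lung lies in one of the most vessel-rich tissues of the body. Venular endothelium also carries selectins and immunoglobulin-family adhesion molecules that catch leukocytes from the blood.

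Expression is given in CPM, estimated counts scaled to library size after TMM, for replicates 1, 2 and 3 in that order, or as mean ± SD (n = 3 in each group). A log2 fold change is lung over cell line, given ± its standard error (SE), and adjusted p-values are from edgeR over all 15212 genes tested, with 0.05 as threshold. "Rose" and "fell" say that a gene passed that test and was higher or lower in lung than in the cell line. The p-values rest on the spread between these preparations alone, and for the cell line that spread may be technical. In whole tissue, fewer cells of a type and less RNA per cell cannot be told apart, so a level in lung is a level per unit of lung RNA.

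Libraries held 17786758 to 22862396 estimated counts, and a sample with no count of a gene could still hold up to 3 counts of it, or 0.120 to 0.173 CPM. Cell line replicate 1 stood apart from the other two (across genes, r = 0.965 and 0.964 against 0.991), and lung replicate 2 stood apart from the other lungs (r = 0.936 and 0.908 against 0.980). Alveolar epithelial markers summed to 14670 to 22050 CPM in the lungs and 8.17 to 13.9 CPM in the KP line. All 5 genes listed for the KP cell line (Msln, Add2, Bcat1, Cck and Grem1) were lower in lung. That list was chosen with earlier results of these data known, so its direction is no independent check of the samples. B cell markers (6 genes) summed to 422 to 959.5 CPM in the lungs and were not near 0 in the cell line, at 146 to 273 CPM. T cell markers (6 genes) summed to 135 to 189.7 CPM in the lungs and 9.27 to 19.5 CPM in the KP line. The cell line libraries thus held transcripts of B and T cell marker genes, and the part of other cells in the low endothelial values of the cell line was not tested.

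The promoter windows show the sequence next to genes with different patterns between lung and cell line. RefSeq promoter windows of GRCm38.p6, 250 bases before to 50 bases after the start, were found for 20 of the 36 members and made 25 windows. ETS factors such as ERG bind a core written GGAA, and both strands were searched, so capitals in the lines below mark GGAA or its reverse complement TTCC. Robo4, Emcn, Cd34, Clec14a and Tie1 are shown as adhesion, junction or signalling members with under 1.5% of their lung level in the cell line. Icam1 is shown as a leukocyte adhesion gene counted in both groups, with a kappa B-like sequence, and Selp as the member that fell. Each line is 5′ to 3′ on the strand of the gene.
Robo4 (chr9:37401722-37402021, plus strand): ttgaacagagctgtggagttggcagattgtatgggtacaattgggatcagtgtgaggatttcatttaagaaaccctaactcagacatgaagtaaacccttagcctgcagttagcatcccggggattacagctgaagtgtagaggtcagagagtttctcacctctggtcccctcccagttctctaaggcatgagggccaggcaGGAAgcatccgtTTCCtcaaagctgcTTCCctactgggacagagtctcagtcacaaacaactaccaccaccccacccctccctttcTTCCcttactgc
Emcn (chr3:137340828-137341127, plus strand): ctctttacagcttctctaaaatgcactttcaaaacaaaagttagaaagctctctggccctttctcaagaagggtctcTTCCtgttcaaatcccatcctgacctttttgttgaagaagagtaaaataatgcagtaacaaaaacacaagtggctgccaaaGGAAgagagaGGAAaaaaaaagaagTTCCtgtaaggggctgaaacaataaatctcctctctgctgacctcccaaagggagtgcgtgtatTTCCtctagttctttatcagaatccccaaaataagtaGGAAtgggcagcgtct
Cd34 (chr1:194938571-194938870, plus strand): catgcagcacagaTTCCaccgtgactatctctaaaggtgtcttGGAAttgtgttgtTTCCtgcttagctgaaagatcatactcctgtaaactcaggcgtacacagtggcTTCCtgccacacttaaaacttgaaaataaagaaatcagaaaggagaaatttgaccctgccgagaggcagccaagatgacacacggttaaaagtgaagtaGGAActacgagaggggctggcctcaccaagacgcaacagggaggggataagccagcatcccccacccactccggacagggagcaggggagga
Clec14a (chr12:58269209-58269508, minus strand): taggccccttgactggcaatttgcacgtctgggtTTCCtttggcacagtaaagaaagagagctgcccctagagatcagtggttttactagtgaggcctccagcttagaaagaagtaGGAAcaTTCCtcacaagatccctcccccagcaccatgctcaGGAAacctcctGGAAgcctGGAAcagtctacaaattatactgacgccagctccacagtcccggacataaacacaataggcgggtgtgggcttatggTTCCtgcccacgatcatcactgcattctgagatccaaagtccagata
Tie1 (chr4:118489800-118490099, minus strand): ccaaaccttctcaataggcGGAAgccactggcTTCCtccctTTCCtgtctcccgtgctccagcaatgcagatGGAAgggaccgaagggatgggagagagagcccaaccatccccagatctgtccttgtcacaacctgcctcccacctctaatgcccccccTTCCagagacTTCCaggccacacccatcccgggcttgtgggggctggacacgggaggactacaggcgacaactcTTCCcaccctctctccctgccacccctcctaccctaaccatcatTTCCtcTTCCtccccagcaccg
Icam1 (chr9:21015690-21015989, plus strand): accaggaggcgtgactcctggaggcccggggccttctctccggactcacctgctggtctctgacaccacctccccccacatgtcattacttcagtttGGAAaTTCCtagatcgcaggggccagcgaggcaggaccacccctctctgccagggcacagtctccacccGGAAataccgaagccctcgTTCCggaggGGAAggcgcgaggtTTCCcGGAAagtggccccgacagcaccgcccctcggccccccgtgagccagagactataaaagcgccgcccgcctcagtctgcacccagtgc
Selp (chr1:164115014-164115313, plus strand): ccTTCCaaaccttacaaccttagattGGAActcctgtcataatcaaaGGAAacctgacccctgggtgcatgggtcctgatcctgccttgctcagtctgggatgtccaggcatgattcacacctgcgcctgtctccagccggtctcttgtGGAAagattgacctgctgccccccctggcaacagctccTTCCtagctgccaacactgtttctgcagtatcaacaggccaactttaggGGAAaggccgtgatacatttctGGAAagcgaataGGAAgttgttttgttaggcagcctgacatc

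The GGAA core is too short to set these windows apart. It stood in 25 of 25 member windows and in 96.0% of all 32851 windows of the same length, with a median of 4 matches in member windows and 3 in all windows. The longer ETS-type sequence CAGGAAG, which contains GGAA, stood in 10 of 25 member windows (40.0%) and in 13.3% of all windows. Among the windows shown it was in Robo4, Emcn and Cd34, with 1 match each. The other member windows with CAGGAAG were of Calcrl, Rasip1, Erg, Sele, Apln and Egfl7, and Egfl7 was counted more than once. The SOX-type core ACAAT stood in 7 of 25 member windows (28.0%) and in 31.0% of all windows. The kappa B-like sequence GGANNTTCC, which can overlap GGAA, stood in 3 of 25 member windows (12.0%), those of Sele, Icam1 and Kitl, and in 4.3% of all windows. These counts are descriptions of letters, and the motifs were chosen with the sequences in view.

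As a group, the endothelial genes were high in lung and low in the cell line. Of 35 members with a test, 32 rose and 1 fell, 2 stayed below the threshold, and Mmrn1 was too low to be tested. Over all genes tested, 31.3% rose and 17.5% fell. The median log2 fold change was 6.57 over the 35 members, against 0.08 over all genes tested. In 32 of 36 members every lung sample was above every cell line sample, in 1 every lung sample was below, and in 3 the groups overlapped. Over all genes tested, 35.6% had every lung sample above and 26.5% had every lung sample below. In lung, 34 of 36 members reached 1 CPM in all 3 samples, against 12 of 36 in the cell line.

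**Figure D1:**
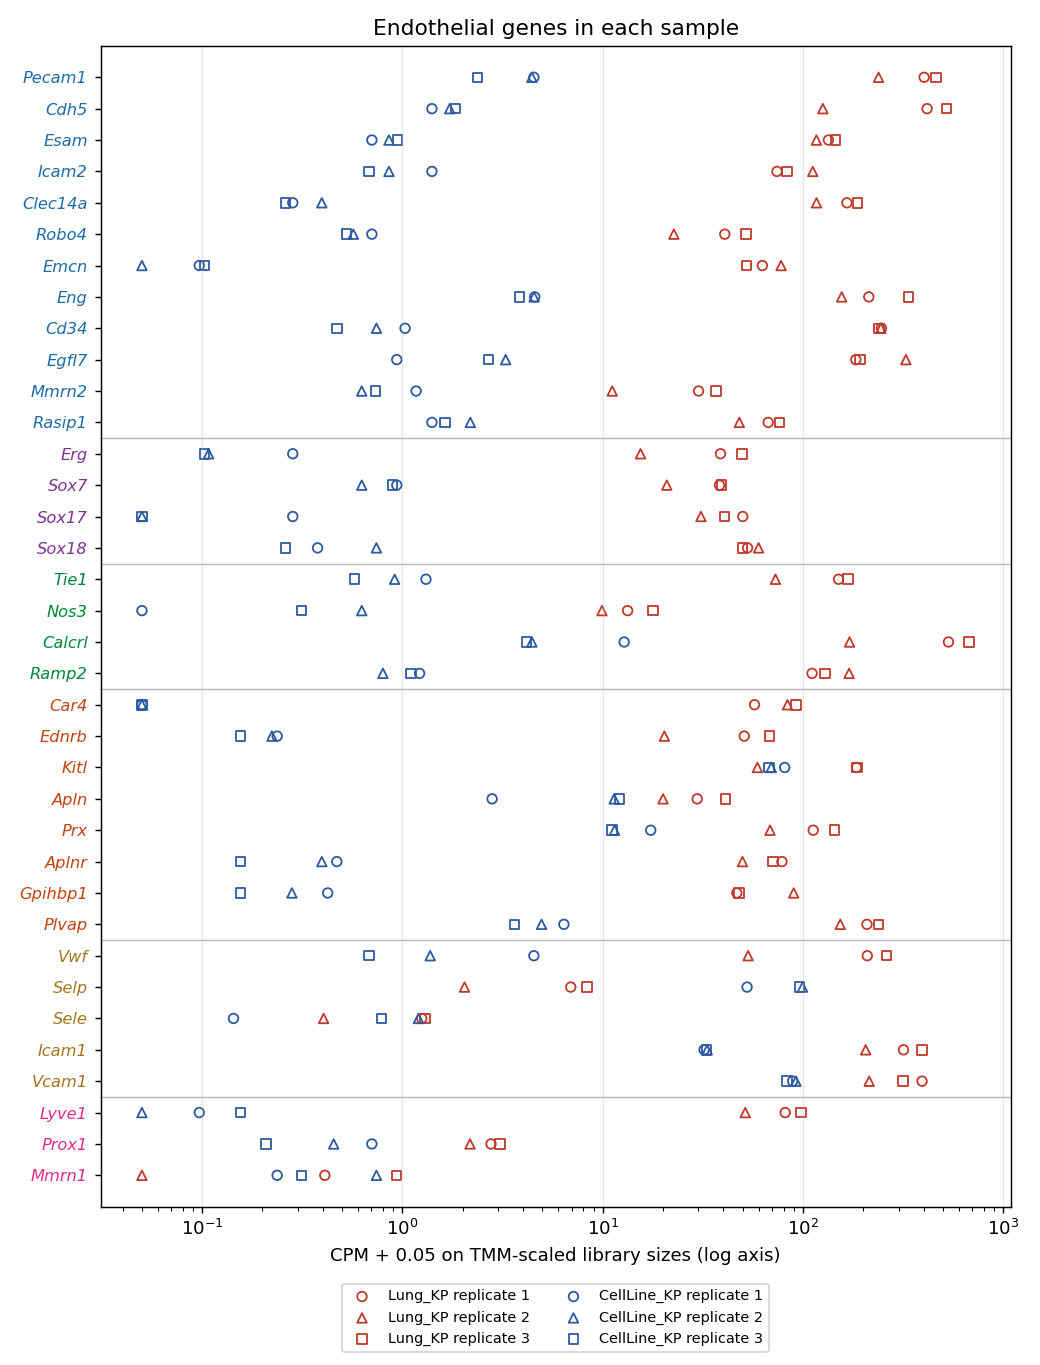
Level of each of the 36 endothelial genes in each sample, in CPM + 0.05 on a log axis, with lung samples in red and cell line samples in blue and 1 marker shape per replicate number. Gene names are coloured by role in the order core adhesion and junction, transcription factors, signalling, capillary, venous and leukocyte adhesion, and lymphatic. Selp is the member with its blue points to the right of its red points, and points at 0.05 are samples with no count.

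The counts left in the cell line lay mostly on a few members. Summed over all 36 members, CPM were 4802, 3218 and 5521 in lung and 321.5, 353.6 and 331.2 in the cell line. For 16 members the cell line mean was under 1% of the lung mean, for 27 under 5%, and for 9 it was 10% or more. These 9 were Kitl, Apln and Prx of the capillary genes, Selp, Sele, Icam1 and Vcam1 of the leukocyte adhesion genes, and Prox1 and Mmrn1 of the lymphatic genes. The 20 members of the adhesion and junction, transcription factor and signalling groups summed to 3022, 2145 and 3553 CPM in the lungs. In the KP line they summed to 34.5, 27.5 and 22.6 CPM. All 20 of them rose, with a median log2 fold change of 6.88.

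Genes of endothelial adhesion and junctions rose without exception in this comparison, 12 of 12, with log2 fold changes between 5.01 and 10.63. Pecam1, which encodes the junctional adhesion molecule CD31, had 403, 238 and 461 CPM in the lungs and 4.48, 4.38 and 2.32 CPM in the KP line. All lung values lay far above all cell line values, and Pecam1 rose by a log2 of 6.62 (SE 0.45, edgeR adjusted p = 3.14e-05). Cdh5, which encodes VE-cadherin of adherens junctions, had 416, 126 and 522 CPM in the lungs and 1.35, 1.67 and 1.79 CPM in the KP line. Lung replicate 2 was the lowest lung sample for Cdh5, still far above the cell line, and the log2 fold change was 7.78 (SE 0.64, edgeR adjusted p = 5.62e-05).

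Cd34, a sialomucin of capillary endothelium and of blood progenitors, was the steadiest member of the core set across lungs in CPM. This depended on the measure. Divided by transcript length, Cd34 was at 182 ± 34.8 TPM in lung, against 131.1 ± 8.96 TPM for Icam2 and 76.5 ± 5.74 TPM for Emcn. Cd34 had 246, 245 and 240 CPM in lung, within a narrow range, and 0.980, 0.691 and 0.422 CPM in the KP line (log2 fold change 8.43 ± 0.40 SE, adjusted p by edgeR 1.18e-05). Eng encodes endoglin, a co-receptor of the BMP9 and BMP10 pathway that some stromal cells and macrophages also carry. It had 213, 156 and 337 CPM in the lungs and 4.53, 4.49 and 3.79 CPM in the KP line, groups that did not overlap, with a log2 fold change of 5.78 (SE 0.39, edgeR adjusted p = 3.09e-05).

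The other 8 core genes had the same direction. Egfl7, a secreted protein of angiogenic vessels, averaged 234 ± 79.9 CPM in the lungs and 2.25 ± 1.22 CPM in the KP line. Clec14a, a C-type lectin of vessel walls, averaged 156 ± 35.9 CPM in the lungs and 0.263 ± 0.0722 CPM in the KP line, a log2 fold change of 9.19. Emcn encodes endomucin, a sialomucin of capillaries and veins, and it was almost uncounted in the cell line. It averaged 64.2 ± 12.8 CPM in lung, whereas the 3 cell line libraries held 2 counts in all, a ratio of 1853 with a 95% exact Poisson interval of 513 to 15300 for counting error alone.

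The remaining genes of the set were as clearly separated between groups. Esam, an immunoglobulin-family protein of endothelial tight junctions, averaged 132 ± 14.4 CPM in the lungs and 0.785 ± 0.123 CPM in the KP line. Icam2, a ligand of leukocyte integrins on resting endothelium, averaged 89.8 ± 19.7 CPM in the lungs and 0.931 ± 0.376 CPM in the KP line. Robo4, a receptor that stabilises vessels, averaged 38.4 ± 14.8 CPM in the lungs and 0.549 ± 0.0933 CPM in the KP line. The smallest changes of the set were in Rasip1, a Ras-interacting protein needed for vessel lumens, and Mmrn2, an endothelial matrix protein that binds CLEC14A. Rasip1 averaged 63.7 ± 14.3 CPM in the lungs and 1.69 ± 0.400 CPM in the KP line (log2 fold change 5.24). Mmrn2 averaged 25.9 ± 13.3 CPM in the lungs and 0.794 ± 0.288 CPM in the KP line (log2 fold change 5.01).

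A wider list of 20 other endothelial junction and surface genes was more mixed, with 12 that rose, 1 that fell and 7 that did not pass, and a median log2 fold change of 3.71. The highest by lung CPM among those that rose were Adgrf5, an adhesion G protein-coupled receptor of endothelium and alveolar epithelium, and Aqp1, a water channel of capillaries. Adgrf5 had 520.3, 156 and 809 CPM in the lungs and 28.8, 38.9 and 40.6 CPM in the KP line (log2 fold change 3.78). Aqp1 had 445, 358 and 567 CPM in the lungs and 5.37, 24.0 and 21.7 CPM in the KP line (log2 fold change 4.75). Procr, the endothelial protein C receptor, fell, with 20.3, 25.0 and 13.2 CPM in the lungs and 68.5, 56.0 and 62.0 CPM in the KP line (log2 fold change -1.67 ± 0.29 SE, adjusted p by edgeR 0.00194).

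The transcription factors of endothelial identity were nearly absent from the cell line, below 1 CPM in each sample, and all 4 rose. ERG is an ETS factor that keeps junction genes active in endothelial cells, and Erg had 38.7, 15.4 and 49.5 CPM in the lungs and 0.233, 0.0576 and 0.0527 CPM in the KP line. Lung replicate 2 was lower than the other lungs, and cell line replicate 1 was the highest of its group with all 3 at or below 0.233 CPM (log2 fold change 8.10 ± 0.71 SE, adjusted p by edgeR 6.84e-05). The log2 fold change of Erg was 9.13 without cell line replicate 1.

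The SOXF genes Sox7, Sox17 and Sox18 act together in vessel formation, and Sox17 marks arteries most. Sox17 had 49.98, 30.9 and 40.5 CPM in the lungs and 0.233, 0 and 0 CPM in the KP line, where replicate 1 held all 5 counts. Its log2 fold change was 8.79 (SE 0.77, edgeR adjusted p = 6.70e-05), and 12.70 without cell line replicate 1, a value that depends on the prior count because the remaining cell line samples had no count. Sox18 had 52.8, 59.9 and 49.8 CPM in the lungs and 0.327, 0.691 and 0.211 CPM in the KP line (log2 fold change 7.05 ± 0.44 SE). Sox7 had the smallest change of the factors, with 38.2, 20.8 and 39.1 CPM in the lungs and 0.887, 0.576 and 0.843 CPM in the KP line (log2 fold change 5.39 ± 0.40 SE). In none of the 4 factors did the groups overlap.

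Other transcription factors active in endothelium, 14 in number, rose in 10 cases and fell in none, with a median log2 fold change of 1.62. Ets1, an ETS factor that lymphocytes and many tumour cells also express, had 212, 154 and 267 CPM in the lungs and 104, 122 and 115 CPM in the KP line (log2 fold change 0.90 ± 0.27 SE, adjusted p by edgeR 0.0266). Klf2, a factor induced in endothelium by blood flow and present in resting T cells, had 110, 163 and 129.6 CPM in the lungs and 17.0, 41.9 and 48.7 CPM in the KP line (log2 fold change 1.91 ± 0.41 SE). The 4 that did not pass, named after their values were seen, were Ets2, Elk3, Gata2 and Klf4, and their log2 fold changes ran from -0.59 for Elk3 to 0.70 for Klf4.

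Endothelial signalling genes rose in 4 of 4 cases. Tie1, an orphan receptor kinase that works with the angiopoietin receptor TEK, had 150.4, 72.8 and 168 CPM in the lungs and 1.26, 0.864 and 0.527 CPM in the KP line (log2 fold change 7.18 ± 0.52 SE, adjusted p by edgeR 3.54e-05). Nos3, the endothelial nitric oxide synthase, was the lowest of the signalling genes in lung once levels were divided by transcript length, at 6.32 ± 2.80 TPM. It had 13.3, 9.86 and 17.8 CPM in the lungs and 0, 0.576 and 0.263 CPM in the KP line, with cell line replicate 1 at no count and replicate 2 the highest of its group. Its log2 fold change was 5.63 (SE 0.81, edgeR adjusted p = 7.21e-04), which shifted by -0.63 when cell line replicate 1 was left out and came to 6.61 when replicate 2 was left out.

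Calcrl and Ramp2 encode the receptor and the accessory protein that together bind adrenomedullin, a peptide that tightens the vessel barrier. Calcrl had 532, 171 and 676 CPM in the lungs and 12.7, 4.38 and 4.11 CPM in the KP line. Lung replicate 2 was the lowest lung and cell line replicate 1 the highest cell line sample, and the groups were still far apart. The log2 fold change was 6.02 (SE 0.74, edgeR adjusted p = 3.15e-04) and 6.75 without cell line replicate 1. Ramp2 had 111, 169.8 and 128 CPM in the lungs and 1.17, 0.749 and 1.05 CPM in the KP line, and for this short transcript lung replicate 2 was the highest lung (log2 fold change 7.09 ± 0.36 SE, adjusted p by edgeR 1.43e-05). With protein-coding transcripts alone it was 8.81 ± 0.71 SE (adjusted p by edgeR 5.38e-05). The longest Ramp2 transcript, annotated as a target of nonsense-mediated decay, held 0.79, 0.57 and 0.78% of the gene's counts in lung and 79.7, 17.5 and 50.6% in the cell line. The shorter of its 2 transcripts with a retained intron held 31.6, 33.05 and 27.7% in lung and 20.3, 50.3 and 0% in the cell line, shares that rest on 58 cell line counts in all.

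**Figure D2:**
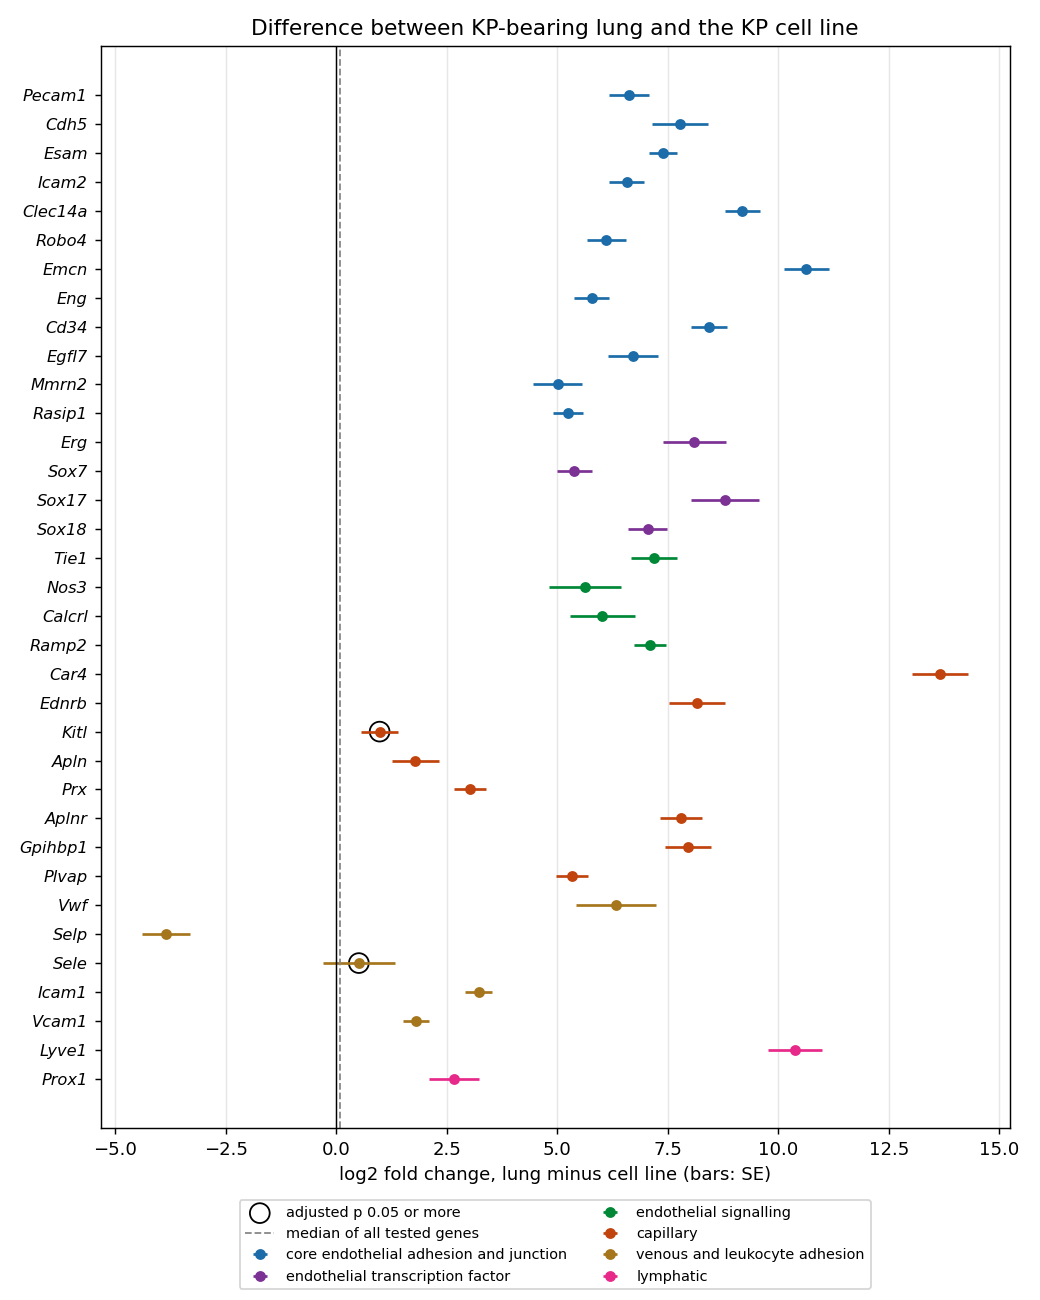
Log2 fold change, lung minus cell line, of the 35 endothelial genes tested, with 1 SE on each side and colours by role. The dashed line is the median of all genes tested, 0.08, and circled points, Kitl and Sele, did not pass the threshold. Selp, at -3.85, is the point left of 0, and Car4 at 13.66 rests on a cell line with no count.

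Capillary genes split into a set with almost no signal in the cell line and a set that was also counted in the cell line. Of 8 members, 7 rose and Kitl did not pass the threshold, with a median log2 fold change of 6.57. Car4, a membrane carbonic anhydrase of alveolar capillaries, had 57.2, 83.6 and 92.3 CPM in the lungs and no count in any cell line sample. Set against 3 counts over the cell line group, Car4 was at least 1496-fold higher in lung. Ednrb, the endothelin B receptor, which with Car4 marks the large alveolar capillary cell called the aerocyte, had 50.8, 20.3 and 68.0 CPM in the lungs and 0.187, 0.173 and 0.105 CPM in the KP line. Lung replicate 2 was again the lowest lung sample, and the groups did not overlap (log2 fold change 8.16 ± 0.63 SE, adjusted p by edgeR 4.29e-05).

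General capillary cells of the lung carry the apelin receptor and the lipase-anchoring protein GPIHBP1. Aplnr had 78.4, 49.8 and 70.8 CPM in the lungs and 0.420, 0.346 and 0.105 CPM in the KP line (log2 fold change 7.80 ± 0.48 SE, adjusted p by edgeR 2.49e-05). Gpihbp1 had 46.7, 89.8 and 47.7 CPM in the lungs and 0.373, 0.230 and 0.105 CPM in the KP line (log2 fold change 7.96 ± 0.53 SE, adjusted p by edgeR 3.09e-05). Both were below 0.5 CPM in each cell line sample and above 46 CPM in each lung. Plvap, the protein of the diaphragms that span endothelial fenestrae and caveolae, had 209, 153 and 238 CPM in the lungs and 6.35, 4.90 and 3.58 CPM in the KP line (log2 fold change 5.34 ± 0.36 SE, adjusted p by edgeR 3.09e-05).

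Kitl and Apln, the ligands of KIT and of the apelin receptor, were the capillary genes closest between groups. Kitl had 185, 59.1 and 186 CPM in the lungs and 81.0, 69.4 and 67.6 CPM in the KP line. Lung replicate 2 was below all cell line samples, whereas lung replicates 1 and 3 were above them, so the groups overlapped. The log2 fold change of Kitl was 0.98 (SE 0.42, edgeR adjusted p = 0.0877), and without lung replicate 2 it was 1.29 with an edgeR adjusted p of 0.00101. Apln had 29.6, 20.0 and 40.9 CPM in the lungs and 2.75, 11.4 and 12.1 CPM in the KP line, where replicate 1 was the lowest. All lungs exceeded the whole cell line group (log2 fold change 1.79 ± 0.54 SE, adjusted p by edgeR 0.0257), but the call was lost without lung replicate 1 (1.81, edgeR adjusted p = 0.0531) and without lung replicate 3 (1.51, edgeR adjusted p = 0.0635).

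The receptors of these 2 ligands had larger log2 fold changes than the ligands. Kit, which general capillary cells and mast cells carry and which is named here for its ligand after its values were seen, had 114, 33.0 and 146 CPM in the lungs and 1.21, 0.864 and 0.738 CPM in the KP line (log2 fold change 6.68 ± 0.65 SE, adjusted p by edgeR 1.05e-04). Per transcript length, the cell line held Kitl at 24.4 ± 2.72 TPM and Kit at 0.328 ± 0.0992 TPM, and it held Apln at 4.91 ± 2.90 TPM and Aplnr at 0.140 ± 0.0799 TPM. TPM divides by annotated transcript length, so that levels of different genes can be set side by side. The difference between the fold changes of ligand and receptor was not tested.

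Prx encodes periaxin, a scaffold protein known from Schwann cells that is also found in lung capillary endothelium. It had 112, 68.4 and 144 CPM in the lungs and 17.3, 11.4 and 11.1 CPM in the KP line (log2 fold change 3.03 ± 0.36 SE, adjusted p by edgeR 2.83e-04). The shares of the estimated counts of Prx on its transcripts also differed between groups. Prx-202 and Prx-204 together held 67.8, 49.4 and 53.9% of the gene's counts in lung and none in the cell line. Prx-201 held 23.2, 44.2 and 40.7% in lung and 92.3, 87.6 and 92.1% in the cell line. Such shares rest on how the quantification splits reads among overlapping transcripts, and no transcript was tested alone.

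Of 11 other capillary genes, 10 rose, 1 did not pass and none fell, with a median log2 fold change of 6.97. The highest by lung CPM were Sparcl1, a matricellular protein that pericytes and fibroblasts also make, and Hpgd, the prostaglandin-degrading enzyme of capillaries, alveolar epithelium and macrophages. Sparcl1 had 889.9, 391 and 677 CPM in the lungs and 1.77, 1.96 and 0.474 CPM in the KP line. Hpgd had 279.6, 269.6 and 242 CPM in the lungs and 3.31, 2.42 and 1.21 CPM in the KP line. The gene that did not pass, named after its value was seen, was the homeobox gene Nkx2-3 (log2 fold change 1.07 ± 0.44 SE, adjusted p by edgeR 0.0791).

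Venous and leukocyte adhesion genes were the least uniform members in direction. Of 5, 3 rose, Selp fell and Sele did not pass, with a median log2 fold change of 1.80. Vwf, the clotting factor that endothelium and megakaryocytes store, had 209, 53.2 and 261 CPM in the lungs and 4.48, 1.33 and 0.632 CPM in the KP line. Lung replicate 2 was the lowest lung and cell line replicate 1 the highest cell line sample. The log2 fold change was 6.33 (SE 0.91, edgeR adjusted p = 7.33e-04) and 7.47 without cell line replicate 1. The longest Vwf transcript, Vwf-203, held 61.6, 22.6 and 62.9% of the counts in lung and 94.6, 58.4 and 74.3% in the cell line. The shorter Vwf-210, annotated as a target of nonsense-mediated decay, held 36.37, 67.73 and 36.02% in lung and none in the cell line. The cell line shares of Vwf rest on 131 counts over the 3 samples.

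**Figure D3:**
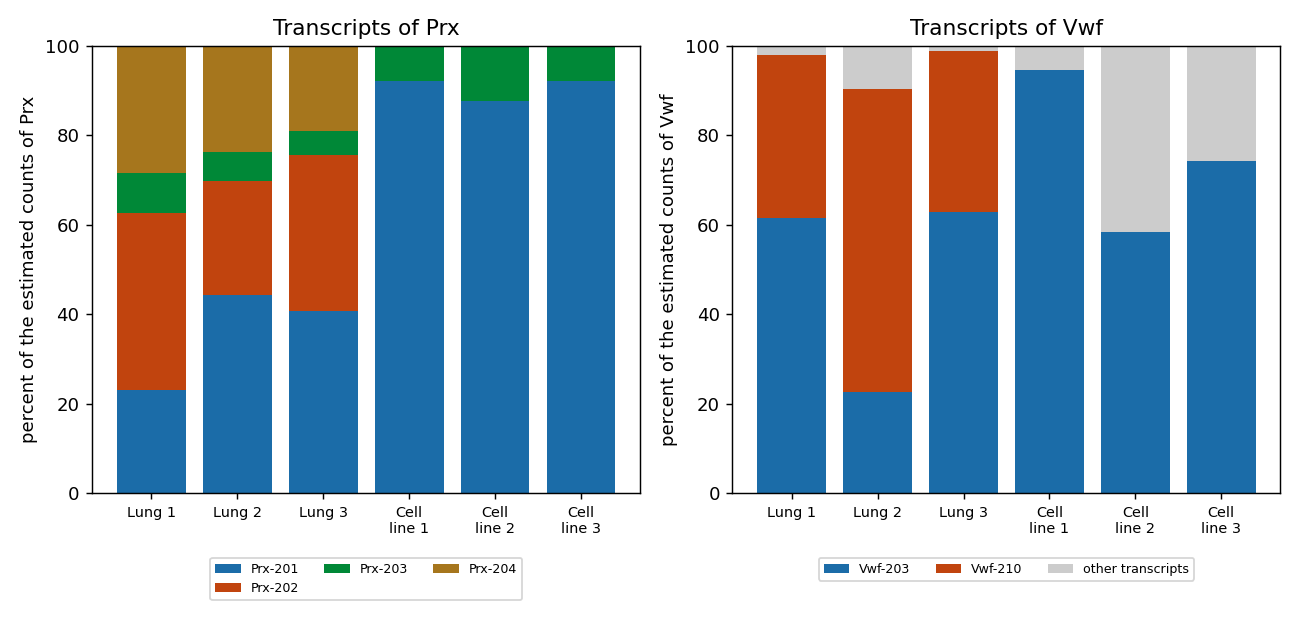
Share of the estimated counts of Prx (left) and Vwf (right) on each transcript, in percent, with 1 bar per sample and lung samples left of cell line samples. Prx-202 and Prx-204 are seen in the lung bars and hold 0% in the cell line bars, and Vwf-210 is largest in lung replicate 2, at 67.7%.

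P-selectin was the member with the opposite pattern. Selp, which encodes the selectin that platelets and venular endothelium store in granules and present to leukocytes, had 6.87, 1.99 and 8.31 CPM in the lungs and 52.5, 99.4 and 96.0 CPM in the KP line. Every lung sample was below every cell line sample, and Selp fell by 3.85 on the log2 scale (SE 0.55, edgeR adjusted p = 7.25e-04), with the cell line mean 14.4 times the lung mean. The cell line signal was on the protein-coding Selp-205, which held 99.9, 99.3 and 99.7% of the gene's counts there and 99.4, 92.8 and 73.9% in lung. Platelet and megakaryocyte markers, 8 genes of which all rose, summed to 59.6 to 61.5 CPM in the lungs and 7.64 to 10.1 CPM in the KP line. None of these 8 was at 0 in the cell line, where the 20 adhesion, transcription factor and signalling members summed to 22.6 to 34.5 CPM. The part of platelets or endothelial cells in the Selp level was not tested.

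E-selectin, which endothelium makes when activated by cytokines, was hardly detected in either group. Sele had 1.20, 0.354 and 1.25 CPM in the lungs and 0.0933, 1.15 and 0.738 CPM in the KP line, and the groups overlapped. Its log2 fold change was 0.51 (SE 0.82, edgeR adjusted p = 0.631) and turned to -0.03 without cell line replicate 1, so no difference was detectable at this depth.

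The integrin ligands ICAM-1 and VCAM-1 were present in both groups. Icam1 had 317, 205.4 and 393 CPM in the lungs and 32.0, 33.2 and 33.0 CPM in the KP line, where the 3 samples were almost equal (log2 fold change 3.22 ± 0.31 SE, adjusted p by edgeR 1.06e-04). Vcam1 had 393, 214 and 316 CPM in the lungs and 88.7, 92.2 and 83.1 CPM in the KP line (log2 fold change 1.80 ± 0.29 SE, adjusted p by edgeR 0.00128). Both genes are also expressed outside endothelium, ICAM-1 on alveolar epithelium and myeloid cells and VCAM-1 on stromal cells and macrophages. Macrophage markers, 8 genes of which 7 rose, summed to 6548 to 8628 CPM in the lungs and 122 to 247 CPM in the KP line. The marker that did not pass, Mrc1, made up 31.3, 162.8 and 172.5 CPM of these cell line sums. Most of the lung sums was Lyz2 alone, at 5919, 7943 and 6413 CPM. The 8 fibroblast and pericyte markers, which all rose, summed to 929 to 2978 CPM in the lungs and 15.8 to 28.0 CPM in the KP line. The part of macrophages and stromal cells in the levels of Icam1 and Vcam1 was not tested.

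Of 7 other venous genes, 5 rose, 2 did not pass and none fell, with a median log2 fold change of 2.33. Bmp6, a growth factor ligand of venous and sinusoidal endothelium, had 73.6, 40.0 and 91.5 CPM in the lungs and 4.53, 1.33 and 1.58 CPM in the KP line (log2 fold change 4.77). Prss23, a secreted serine protease, had 32.0, 28.8 and 36.8 CPM in the lungs and 13.6, 10.9 and 9.64 CPM in the KP line (log2 fold change 1.51). The 2 that did not pass, named after their values were seen, were the venous identity factor Nr2f2 (log2 fold change 0.30) and the ephrin receptor gene Ephb4 (log2 fold change 0.18).

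Of the lymphatic genes, Lyve1 had by far the highest level in lung, 52.1 ± 24.5 TPM, with Prox1 at 0.627 ± 0.215 TPM and Mmrn1 at 0.193 ± 0.209 TPM. Lyve1, a hyaluronan receptor of lymphatic vessels and of a subset of tissue macrophages, had 81.4, 51.4 and 97.8 CPM in the lungs. In the cell line it had 3 counts over the 3 samples, a ratio of 1481 with a 95% exact Poisson interval of 507 to 7180 for counting error alone. Its log2 fold change was 10.38 (SE 0.60, edgeR adjusted p = 2.21e-05) and 11.20 without cell line replicate 3. Prox1, the transcription factor that sets lymphatic identity, had 2.72, 2.12 and 3.01 CPM in the lungs and 0.653, 0.403 and 0.158 CPM in the KP line, groups that did not overlap (log2 fold change 2.66 ± 0.56 SE, adjusted p by edgeR 0.00475). The macrophage marker Adgre1 had 51.7, 38.0 and 67.9 CPM in the lungs and 3.50, 2.88 and 2.002 CPM in the KP line. Mrc1, the 1 of the 8 macrophage markers that did not pass, had 118.5, 47.45 and 127.4 CPM in the lungs. In the KP line Mrc1 had 31.3, 162.8 and 172.5 CPM (log2 fold change -0.32 ± 0.62 SE). How much of Lyve1 came from macrophages was not tested.

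Mmrn1 encodes multimerin-1, a protein of lymphatic endothelium and platelets, and had 0.360, 0 and 0.883 CPM in the lungs and 0.187, 0.691 and 0.263 CPM in the KP line. The groups overlapped and it did not pass the filter on low counts. With no filter its log2 fold change was 0.06 (SE 1.09, edgeR adjusted p = 0.970). Of 9 other lymphatic genes, 8 were tested, 7 rose and 1 fell, with a median log2 fold change of 3.47, and Foxc2 was too low to be tested. Ccl21a, a chemokine of lymphatic endothelium with near-identical gene copies that make its own count uncertain, had 71.8, 109 and 76.1 CPM in the lungs and 7.70, 6.85 and 4.11 CPM in the KP line. Pdpn, podoplanin, which type I alveolar cells also express, had 63.6, 82.7 and 73.9 CPM in the lungs and 0.0933, 0.0576 and 0.0527 CPM in the KP line. Nrp2, a co-receptor of VEGF-C, fell, with 87.1, 22.1 and 87.1 CPM in the lungs and 275, 206 and 212 CPM in the KP line (log2 fold change -1.82 ± 0.50 SE, adjusted p by edgeR 0.0164).

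The order of the members by TPM differed between lung and cell line. In lung, Egfl7 ranked highest at 423 ± 54.3 TPM, followed by Ramp2 at 252 ± 21.6, Icam1 at 233 ± 107, Pecam1 at 221 ± 101 and Calcrl at 207 ± 138 TPM. From Ramp2 to Calcrl, neighbours differed by less than their SD, whereas Egfl7 stood above Ramp2 by more than the SD of either. Sele, at 0.636 ± 0.401 TPM, was in the same low range in lung as Prox1. In the cell line the order was another: Vcam1 at 46.1 ± 1.97 and Selp at 43.2 ± 13.7 TPM led and did not differ beyond their spread. Kitl at 24.4 ± 2.72 and Icam1 at 23.0 ± 0.274 TPM followed, then Prx at 5.17 ± 1.43 and Apln at 4.91 ± 2.90 TPM. Of these leading cell line genes, Vcam1, Selp and Icam1 encode adhesion molecules and Kitl a ligand. Cdh5, which encodes VE-cadherin, was at 0.804 ± 0.202 TPM in the cell line. Which cells these cell line levels came from was not tested.

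Among the lungs, the members moved with transcript length. Over the 34 members at 1 CPM or more in all lungs, the log2 ratio of lung replicate 2 to the mean of lungs 1 and 3 had a Spearman rho of -0.74 with transcript length, given as a description because the points share the same 3 libraries. Of 9 members under 2000 bases, 7 were higher in replicate 2, with a median log2 ratio of 0.44. Gpihbp1, Egfl7, Ramp2, Icam2 and Emcn were among those 7. Of 17 members between 2000 and 4000 bases, 1 was higher, with a median of -0.82, and of 8 over 4000 bases none was higher, with a median of -1.02. The same ratio over 13891 genes had a rho of -0.82, with medians of 0.61, -0.29 and -0.98 in the same length classes. The order of lungs within a gene, such as Cdh5 low and Egfl7 high in replicate 2, therefore moved with length over the whole library, and no difference in vessels between lungs was read from it.

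**Figure D4:**
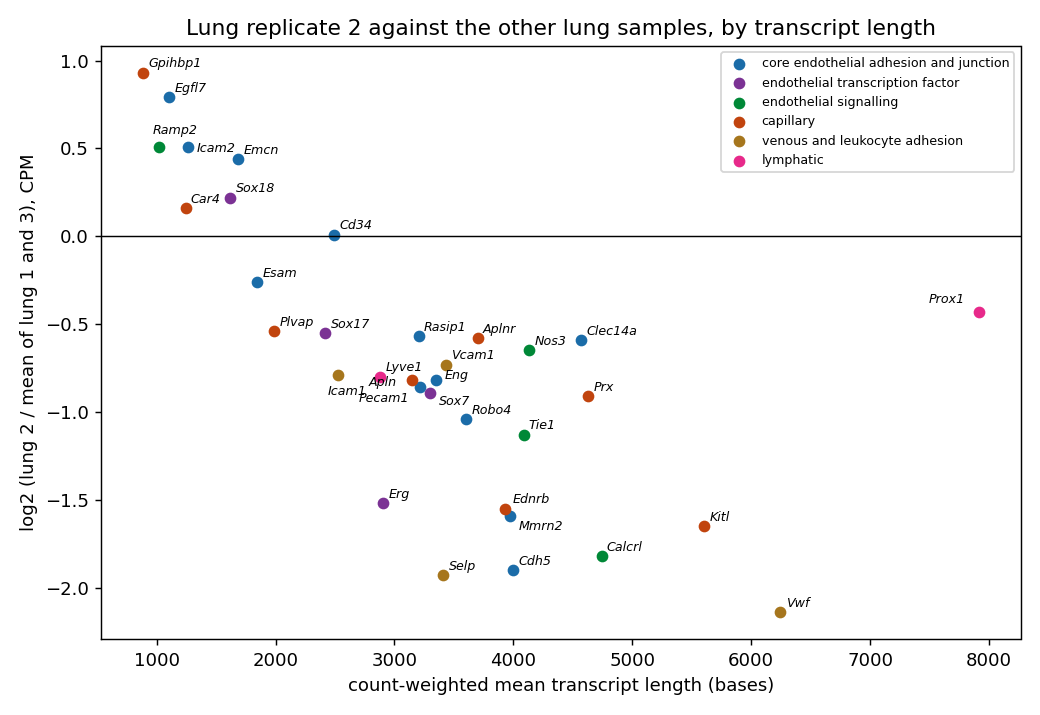
Log2 ratio of lung replicate 2 to the mean of lung replicates 1 and 3, in CPM, against count-weighted mean transcript length in bases, for the 34 endothelial genes at 1 CPM or more in all lungs, coloured by role. Short transcripts such as Gpihbp1 lie above 0, and Vwf has the lowest ratio, -2.14.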

How the data were processed

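RNA-seq values were estimated counts per transcript, deposited by the authors as 1 table with a column per sample. The tools named in the submitters' processing notes were Salmon 1.4.0, FastQC 0.11.9 and DESeq2 1.32.0, with GRCm39 as build. What DESeq2 was used for, and which annotation, is not given in the sources used here. Of 76776 transcripts, 76521 (99.67%) matched GENCODE M21 and were summed to 20687 symbols, and the other 255 (0.107 to 0.416% of a sample's counts) were left out. M21 belongs to another build, so it gave names and lengths only. Sums were rounded and tested with edgeR 4.0.16 in R 4.3.3 (quasi-likelihood F test, TMM, expression filter by group, Benjamini-Hochberg adjustment over 15212 genes), with group as the term. TPM used annotated lengths, and lengths fitted per sample were not used here. Intervals and floors cover counting error only. The members and lists were chosen with earlier results of these data known. Per-sample values are given for the transcription factors, the 4 core genes highest in lung CPM, all signalling, capillary, venous and lymphatic members and every member that fell or did not pass. From the other lists, the 2 highest lung genes past the threshold and each gene that fell are named. Alternatives were DESeq2 1.42.0, limma-voom (limma 3.58.1), other scalings and filters, protein-coding transcripts, a replicate block and each sample left out. Leaving out lung replicate 2 with cell line replicate 1 was added after seeing the data.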

Additional observations from a re-analysis of the deposited data

How the results depend on the processing

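The count of 32 endothelial genes higher and 1 lower in lung was the same with library size alone, with DESeq2 size factors, without the filter on low counts, with the DESeq2 Wald test, limma-voom and protein-coding transcripts. Where all 6 samples had to reach 10 counts, 20 members could be tested and 18 were higher (21.3% of all genes were), because genes near 0 in the cell line were removed, and over all genes 2555 were higher and 1701 lower. Library size alone moved the median log2 fold change of all genes by 0.23 and gave 1728 genes lower, so that 75.1% of calls were higher in lung against 64.1% with TMM. Leaving out each sample in turn gave 31 to 33 members higher and 1 lower. Of 510 refits of single members, 505 kept direction and side of the threshold. The 5 others were Apln, lost without lung replicate 1 or 3, Kitl, passed without lung replicate 2 (1.29) and without lung replicate 2 and cell line replicate 1 together (1.43), and Sele, which ranged from -0.03 (without cell line replicate 1) to 1.08 over the left-out samples. Leaving out those 2 libraries together gave 33 members higher and 1 lower, and 5425 genes lower over all. Without those 2 libraries, the fold changes of 8 members, taken off the log2 scale, moved by more than 1.5-fold. On the log2 scale they came to 7.83 for Tie1, 9.49 for Erg, 12.83 for Sox17 and 6.00 for Egfl7. Vwf came to 7.92, Prox1 to 3.34, Mmrn2 to 5.70 and Calcrl to 7.15. With limma-voom, Sox17 was 9.42, Nos3 6.40 and Car4 11.51, and with the DESeq2 Wald test Car4 was 12.97. With the replicate number as a block, 32 members were higher and 1 lower, and 4634 and 2526 genes over all. The labels state no pairing by replicate number. Deviations of same-numbered samples correlated at -0.042, 0.082 and -0.083, and those of differently numbered samples at -0.1 to 0.117. With 3 samples per group these values cannot exclude a batch shared by number. Counts near 0 in the cell line limit the precision of its folds for Emcn, Lyve1, Sox17, Erg and Car4.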

Other observations

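Arterial genes, a list outside the 36 members, were also mostly higher in lung. Of 10, 8 rose and 2 fell, with a median log2 fold change of 4.42. Cxcl12, a chemokine of arterial endothelium and stromal cells, had 198, 142 and 252 CPM in the lungs and 17.5, 16.6 and 9.22 CPM in the KP line (log2 fold change 3.77 ± 0.37 SE, adjusted p by edgeR 1.14e-04). Fbln5, an elastic fibre protein, had 77.8, 64.1 and 79.8 CPM in the lungs and 3.03, 2.02 and 1.53 CPM in the KP line (log2 fold change 5.07 ± 0.35 SE, adjusted p by edgeR 3.11e-05). The 2 that fell encode guidance proteins that tumour cells can also carry. Efnb2, ephrin-B2, had 142, 58.7 and 124 CPM in the lungs and 209, 310.2 and 329.5 CPM in the KP line (log2 fold change -1.38 ± 0.38 SE, adjusted p by edgeR 0.0166). Unc5b, a netrin receptor, had 77.5, 26.7 and 54.8 CPM in the lungs and 238, 272 and 279 CPM in the KP line (log2 fold change -2.31 ± 0.39 SE, adjusted p by edgeR 0.00171).

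Partners of the members, the ligands, receptors and junction proteins that bind their products, were divided. Of 21, 20 were tested, 12 rose, 2 fell and 6 did not pass, with a median log2 fold change of 2.38, and Apela, a second ligand of the apelin receptor, was too low to be tested. Lpl, the lipase that GPIHBP1 anchors in capillaries and that macrophages and alveolar type II cells also make, had 179, 67.6 and 209 CPM in the lungs and 2.05, 1.33 and 1.32 CPM in the KP line (log2 fold change 6.59). Itgb2, the integrin chain by which leukocytes bind ICAM-1, had 152, 84.7 and 197 CPM in the lungs and 7.56, 8.01 and 5.27 CPM in the KP line (log2 fold change 4.38). The genes that fell are widely expressed. Ctnnb1, the catenin that binds cadherins, had 1036, 619.9 and 1018 CPM in the lungs and 1912, 1934 and 2003 CPM in the KP line (log2 fold change -1.13). Glg1, a Golgi protein that binds E-selectin, had 137, 42.7 and 132 CPM in the lungs and 255, 302 and 310.2 CPM in the KP line (log2 fold change -1.48).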
